A study of Mus musculus with 12 samples.

Results

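The Hedgehog pathway genes are 9 of the 25965 genes listed for each library, chosen by name as the rows Shh, Smo, Ptch1, Hhip, Gas1, Sufu, Gli1, Gli2 and Gli3, and all 9 were found in each of the 12 libraries. RNA from mouse skin cells was sequenced in a study of the epidermal growth factor receptor EGFR and hair shaft differentiation, with 2 libraries in each of 6 groups. The hair follicle stem cell (HFSC) group labelled knockout (L95 and L97) carries the genotype EGFR_delta_LGR5, and its control group (L94 and L136) carries EGFR_fl_fl, the floxed allele. The outer root sheath (ORS) knockout group (E358 and E359) carries EGFR_delta_ep, with EGFR_fl_fl controls (E341 and E344). The IFE knockout group (E358 and E359) carries EGFR_delta_ep as well, with EGFR_fl_fl controls (E341 and E360). The labels spell IFE out as inner root sheath, although the abbreviation usually stands for interfollicular epidermis. They name no Cre line, age, sex or strain. ORS and IFE cells are labelled as sorted, and no other treatment is given.

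Hedgehog signalling starts when a secreted ligand such as Sonic hedgehog (Shh) binds the receptor Patched 1 (Ptch1), which otherwise holds back the membrane protein Smoothened (Smo). Active Smoothened, working at the primary cilium, releases the GLI transcription factors from their inhibitor Sufu. Gli1, Ptch1 and Hhip are themselves transcribed in response to the signal, so their transcripts are widely read as pathway output. In skin, Sonic hedgehog comes mainly from the growing follicle's matrix and from sensory nerves near the bulge, and the pathway is required for follicle growth.

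Values are reads per M reads in genes after TMM scaling (CPM), a scaling that centres the libraries on the bulk of their genes. HFSC libraries had 11.5 to 16.8 M reads in genes (26.9 to 28.9% of the library's total). ORS libraries had 24.7 to 27.7 M (50.6 to 54.6%), and IFE libraries had 11.4 to 13.2 M (27.8 to 29.6%). On the deposited scale, which divides by the library total, the median gene was therefore shifted by 0.95 (log2) for ORS over IFE and by -0.94 for HFSC over ORS relative to the TMM scale. All changes below are relative to the TMM scale unless the deposited scale is named. Differences were tested with limma on log2(CPM + 0.5), a scale on which the change of low genes is understated, and genes with a p under 0.05, after Benjamini-Hochberg adjustment over all genes tested, count as called. Compartments were compared over 4 libraries each, with both genotypes averaged. The HFSC libraries carry other title numbers and another knockout genotype than the ORS and IFE libraries. For HFSC, compartment therefore cannot be told apart from library set. Averaging also joins ORS and IFE knockouts, low in Egfr, with their controls, whereas all HFSC libraries kept Egfr reads.

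The compartments differed in marker content. Cd34, a bulge stem cell surface marker, was at 1330 to 2150 CPM in HFSC, 0 to 5.88 CPM in ORS and had 0 reads in IFE. The 9 bulge stem cell markers as a list separated HFSC from ORS less than Cd34 did. For HFSC over ORS, 3 were called higher, 1 lower and 5 not called (background 28.7%), with a median log2 fold change of 0.10. For HFSC over IFE, all 9 were called higher (background 36.1%). For ORS over IFE, 7 were called higher and 1 lower (background 19.4%). Krt10, a suprabasal keratin, was at 30.6 to 77.7 CPM in HFSC, 27.5 to 65.6 CPM in ORS and 649 to 1404 CPM in IFE. All 8 suprabasal markers summed to 2201 to 2572 CPM in HFSC, 197 to 480 CPM in ORS and 6357 to 8785 CPM in IFE. For HFSC over IFE, 2 of the 8 were called higher and 5 lower, and Ivl and Sbsn were higher in every HFSC library than in any IFE library. The inner root sheath keratins Krt25 and Krt28 had 0 reads in all 4 IFE libraries, so these 2 markers do not match the spelled-out label. The other 6 of the 8 inner root sheath markers in the files had reads in at least 1 IFE library. The sum of all 8 was highest in IFE (884 to 1064 CPM), most of it Gata3. Lgr5, which marks follicle stem and root sheath cells, reached 132 to 357 CPM in HFSC, 340.6 to 495 CPM in ORS and at most 4.07 CPM in IFE. The 6 outer root sheath markers, Lgr5 among them, summed lowest in ORS (11232 to 11788 CPM). Their sum was 18706 to 20320 CPM in HFSC and 19292 to 25555 CPM in IFE. For ORS over IFE, 3 of the 6 were called higher and 2 lower. Krt5 and Krt14 were lower in every ORS library than in any IFE library.

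Egfr, the deleted gene, was near 0 in IFE knockouts, low in ORS knockouts and retained in the HFSC libraries labelled knockout. It was at 335 and 330.1 CPM in the HFSC libraries labelled knockout, against 431 and 389 CPM in HFSC controls. In ORS it was at 3.72 and 55.2 CPM in knockouts E358 and E359, against 277 and 247 CPM in controls E341 and E344. In IFE it was at 0 and 0.319 CPM in knockouts E358 and E359, against 116 and 156 CPM in controls E341 and E360. Its log2 fold change was -0.30 in HFSC (SE 0.155, limma adjusted p = 0.692), -4.10 in ORS (95% interval -6.20 to -1.99, adjusted p = 1) and -7.72 in IFE (-9.82 to -5.61, adjusted p = 0.0798), so Egfr itself was not called. In IFE it was called under 6 of 19 alternatives (adjusted p between 0.00361 and 0.998). Because the HFSC libraries kept Egfr reads, they are called "labelled knockout" here, and whether the deletion leaves reads elsewhere in the transcript was not tested.

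Shh, the ligand, was read in only 2 of the 12 libraries. HFSC library L97 (labelled knockout) held 38 Shh reads (2.37 CPM) and ORS control E341 held 50 reads (1.78 CPM). The other 10 libraries had 0 reads, a count that allows up to 0.112 to 0.268 CPM (3 reads per library, counting error only). Shh was thus not detectable at this depth in most libraries of each compartment, and in neither group with Shh reads did both libraries hold any. L97 also had the highest level of the inner root sheath keratins Krt25 (25.6 CPM) and Krt71 (25.8 CPM) of all 12 libraries, whereas ORS control E341 had 3 Krt25 reads. Over the 8 inner root sheath markers in the files, the summed level was 512 to 662 CPM in HFSC, 382 to 566 CPM in ORS and 884 to 1064 CPM in IFE, most of it Gata3. The 11 hair matrix and shaft markers summed to 145 to 209 CPM in HFSC, 80.0 to 115 CPM in ORS and 207 to 316 CPM in IFE. The part of such cells in the Shh reads was not tested. Shh lies on chromosome 5 at 28456815 to 28467101 (mm10, - strand). It was too low for the tests within a compartment and was not called in any comparison between compartments.

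Among the genes that act at the cell surface, Ptch1, the receptor and a pathway target, was low in HFSC and high in ORS and IFE. Ptch1 (chromosome 13, 63511533 to 63565520, - strand, protein coding) was at 20.9 and 12.6 CPM in HFSC libraries L95 and L97, labelled knockout, against 10.99 and 6.20 CPM in HFSC controls L94 and L136. The ORS values of Ptch1 were 79.4 and 133 CPM in knockouts E358 and E359, against 108 and 120.1 CPM in controls E341 and E344. The IFE values of Ptch1 were 51.9 and 95.6 CPM in knockouts E358 and E359, against 65.6 and 82.0 CPM in controls E341 and E360. Every HFSC library lay below every ORS and IFE library, while the ORS and IFE values overlapped.

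The compartment means of Ptch1 were 12.7 ± 6.1 CPM in HFSC, 110.1 ± 22.9 CPM in ORS and 73.8 ± 19.1 CPM in IFE (SD, n = 4 each). The log2 fold change was -3.17 for HFSC over ORS (SE 0.307, 95% interval -3.84 to -2.50, limma adjusted p = 1.79e-05). For HFSC over IFE it was -2.58 (SE 0.307, -3.25 to -1.91, adjusted p = 4.78e-05). ORS over IFE gave 0.59 (SE 0.307, -0.08 to 1.26, adjusted p = 0.213) and was not called. Both calls held under every alternative run.

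Hhip, a membrane glycoprotein that binds and sequesters Hedgehog ligand, was an ORS and HFSC transcript with no read in IFE. Hhip (chromosome 8, 79966115 to 80058006, - strand, protein coding) was at 0 and 1.19 CPM in HFSC libraries L95 and L97, labelled knockout, against 5.86 and 1.86 CPM in HFSC controls L94 and L136. The ORS values of Hhip were 3.23 and 17.7 CPM in knockouts E358 and E359, against 3.02 and 16.3 CPM in controls E341 and E344. All 4 IFE libraries had 0 reads, which allows up to 0.238 to 0.268 CPM per library. Each ORS library lay above each IFE library, the ORS and HFSC ranges overlapped, and both ORS groups held a low and a high library.

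Hhip averaged 10.1 ± 8.0 CPM in ORS, at least 40.4-fold higher than in IFE, and 2.23 ± 2.54 CPM in HFSC (SD, n = 4 each), at least 8.93-fold higher than in IFE. These bounds divide the mean by IFE libraries set at 3 reads and do not cover the spread between replicates. Without ORS knockout E359 the ORS bound was 30.2-fold, and without HFSC control L94 the HFSC bound was 4.07-fold. On the fitted scale ORS exceeded IFE with an adjusted p of 0.00258 in limma, and the call held under every alternative run (adjusted p at most 0.0355). HFSC over IFE had an adjusted p of 0.0609 and was not called. It passed with a pseudocount of 0.1 CPM (0.0245), on the deposited scale (0.0375) and without ORS knockout E359 (0.0494), within a range of 0.0245 to 0.205. HFSC over ORS gave a log2 fold change of -2.08 (SE 0.735, -3.68 to -0.475, adjusted p = 0.0526) and was not called either. That value passed without ORS control E341 (adjusted p = 0.0327), ORS knockout E358 (0.0303) or HFSC library L97 (0.0493), within a range of 0.0170 to 0.594 over its alternatives.

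Gas1, a membrane-anchored co-receptor that promotes ligand reception, was lowest in ORS. Gas1 (chromosome 13, 60174405 to 60177365, - strand, protein coding) was at 387 and 314 CPM in HFSC libraries L95 and L97, labelled knockout, against 311 and 220.4 CPM in HFSC controls L94 and L136. ORS libraries held less Gas1, 159 and 113 CPM in knockouts E358 and E359, against 162 and 163 CPM in controls E341 and E344. IFE libraries held Gas1 at 342 and 371 CPM in knockouts E358 and E359, against 307 and 355 CPM in controls E341 and E360. All 4 ORS libraries lay below all HFSC and IFE libraries, and the HFSC and IFE values overlapped.

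Gas1 averaged 308 ± 68.3 CPM in HFSC, 149 ± 24.3 CPM in ORS and 343.99 ± 27.0 CPM in IFE (SD, n = 4 each). The log2 fold change was 1.03 for HFSC over ORS (SE 0.161, 0.68 to 1.38, limma adjusted p = 0.000492) and -1.22 for ORS over IFE (SE 0.161, -1.57 to -0.86, adjusted p = 0.000257). HFSC over IFE was -0.18 (SE 0.161, -0.54 to 0.17, adjusted p = 0.405). On the deposited scale the difference was 0.046 for HFSC over ORS (adjusted p = 0.838) and -0.25 for ORS over IFE (adjusted p = 0.212). Neither was called on that scale, and both were called without TMM and with median of ratios or upper quartile scaling. With control libraries alone HFSC over ORS fell short (adjusted p = 0.0618), within a range of 0.000238 to 0.838 over its alternatives, while the range for ORS over IFE was 0.000166 to 0.212.

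Promoters of the 3 surface genes whose levels separated compartments are printed from RefSeq (GRCm38.p6, 250 bases before to 50 after the RefSeq start), 5′ to 3′ on the gene's strand. RefSeq promoters were found for 7 of the 9 genes, all but Shh and Gli1. Both strands were searched for 4 motifs, the GLI site GACCACCCA, the GC box GGGCGG, the TATA box TATAAA and the CCAAT box CCAAT, and each match is in capitals.
Ptch1 promoter, chr13:63565686-63565985, - strand: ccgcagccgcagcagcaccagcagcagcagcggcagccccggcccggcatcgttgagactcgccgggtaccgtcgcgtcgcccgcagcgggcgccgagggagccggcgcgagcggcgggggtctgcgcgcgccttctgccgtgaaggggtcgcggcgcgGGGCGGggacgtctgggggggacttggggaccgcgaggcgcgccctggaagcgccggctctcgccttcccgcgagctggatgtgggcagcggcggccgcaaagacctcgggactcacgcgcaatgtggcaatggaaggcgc
Hhip promoter, chr8:80057959-80058258, - strand: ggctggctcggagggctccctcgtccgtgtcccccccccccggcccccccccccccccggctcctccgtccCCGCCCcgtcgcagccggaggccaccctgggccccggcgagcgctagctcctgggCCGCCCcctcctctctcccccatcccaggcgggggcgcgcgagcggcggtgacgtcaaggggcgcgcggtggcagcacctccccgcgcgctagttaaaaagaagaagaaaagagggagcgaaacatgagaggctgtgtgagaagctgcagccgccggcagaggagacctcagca
Gas1 promoter, chr13:60177486-60177785, - strand: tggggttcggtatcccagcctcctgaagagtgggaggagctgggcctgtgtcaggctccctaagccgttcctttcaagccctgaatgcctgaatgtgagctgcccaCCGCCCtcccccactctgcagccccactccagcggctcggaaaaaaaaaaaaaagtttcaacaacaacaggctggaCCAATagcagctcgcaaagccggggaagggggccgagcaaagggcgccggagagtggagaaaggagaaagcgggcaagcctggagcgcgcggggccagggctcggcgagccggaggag
Ptch1 and Gas1 each held 1 GC box, Hhip held 2, and Gas1 also held 1 CCAAT box. The exact GLI site was in none of the 7 promoters and in 83 of the 32851 mouse promoters of this length (0.253%). The GC box was in 35.7% of them, the TATA box in 13.6% and the CCAAT box in 37.4%. Base composition was 76.3% GC for Ptch1, 73.7% for Hhip and 62.3% for Gas1.

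**Figure D1:**
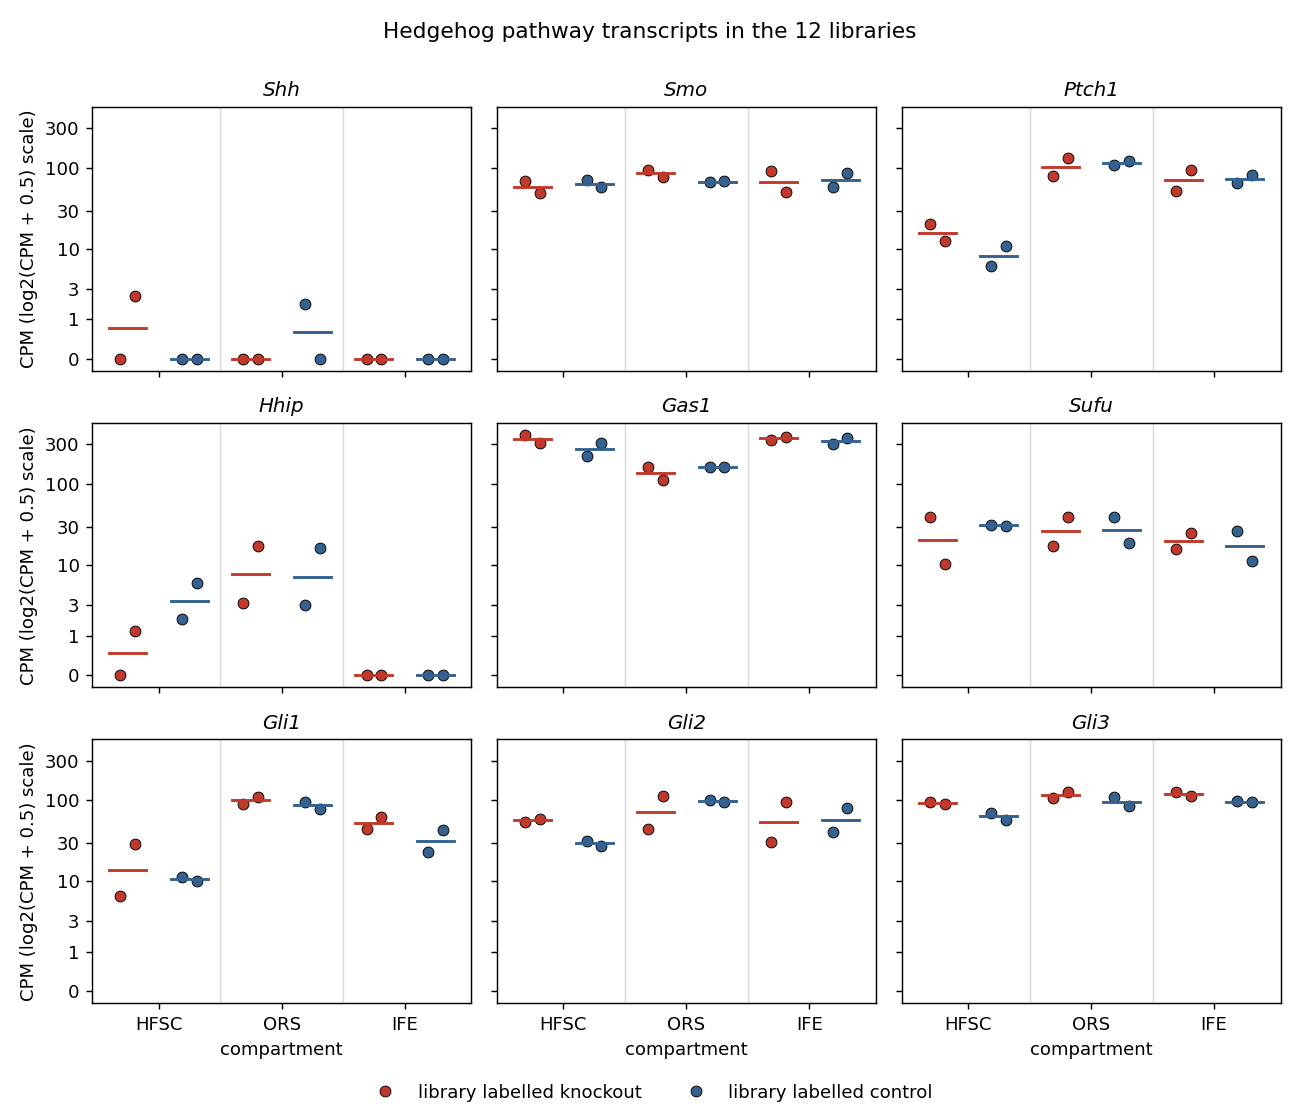
Levels of the 9 Hedgehog genes (CPM, plotted on a log2(CPM + 0.5) axis) in each library by compartment; points are libraries, bars are the mean of each group of 2 on the plotted scale, red is labelled knockout and blue is control. Ptch1 lies between 6.20 and 20.9 CPM in HFSC and between 51.9 and 133 CPM in ORS and IFE, Hhip is at 0 in all 4 IFE libraries, and Gas1 is at 113 to 163 CPM in ORS, below all other libraries.

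Smo, which passes the signal on from the membrane, and Sufu, which restrains the GLI factors, were present in every library at levels that the compartments shared. Smo (chromosome 6, 29735694 to 29761365, + strand) averaged 61.9 ± 10.2 CPM in HFSC, 77.3 ± 12.3 CPM in ORS and 72.0 ± 20.0 CPM in IFE (SD, n = 4 each). Its lowest library was HFSC L97 at 49.0 CPM and its highest ORS knockout E358 at 94.3 CPM. The log2 fold change of Smo was -0.32 for HFSC over ORS (95% interval -0.85 to 0.21), -0.19 for HFSC over IFE (-0.72 to 0.34) and 0.13 for ORS over IFE (-0.39 to 0.66).

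Sufu (chromosome 19, 46396896 to 46488804, + strand) averaged 28.2 ± 12.4 CPM in HFSC, 29.2 ± 12.5 CPM in ORS and 19.9 ± 7.4 CPM in IFE (SD, n = 4 each). It ranged from 10.48 CPM in HFSC L97 to 40.1 CPM in ORS knockout E359. Its intervals were wider, -1.15 to 0.96 for HFSC over ORS, -0.64 to 1.47 for HFSC over IFE and -0.54 to 1.57 for ORS over IFE. Neither gene was called in limma between any 2 compartments (adjusted p between 0.359 and 0.913), which does not show that their levels were equal.

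Of the 3 GLI factors, Gli1, the activator whose own transcript is a Hedgehog target, was low in HFSC like Ptch1. Gli1 (chromosome 10, 127329889 to 127341589, - strand, protein coding) was at 6.50 and 29.4 CPM in HFSC libraries L95 and L97, labelled knockout, against 10.1 and 11.3 CPM in HFSC controls L94 and L136. Gli1 levels in ORS were 89.2 and 109 CPM in knockouts E358 and E359, against 94.3 and 78.1 CPM in controls E341 and E344. Gli1 levels in IFE were 44.2 and 62.5 CPM in knockouts E358 and E359, against 23.1 and 43.7 CPM in controls E341 and E360. All HFSC libraries lay below all ORS libraries and all ORS libraries above all IFE libraries, while L97, the library with Shh reads, exceeded IFE control E341. Gli1 overlaps Arhgap9 on the other strand by 55 bases, and whether counting used strand is not given in the sources used here, so a share of its reads is uncertain.

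Gli1 averaged 14.3 ± 10.3 CPM in HFSC, 92.6 ± 12.8 CPM in ORS and 43.4 ± 16.1 CPM in IFE (SD, n = 4 each). The log2 fold change was -2.86 for HFSC over ORS (SE 0.410, -3.76 to -1.97, limma adjusted p = 0.000271) and -1.70 for HFSC over IFE (SE 0.410, -2.60 to -0.81, adjusted p = 0.00662). ORS over IFE was 1.16 (SE 0.410, 0.27 to 2.05, adjusted p = 0.0686) and was not called. With control libraries alone HFSC over IFE was not called (adjusted p = 0.0825, range over alternatives 0.000459 to 0.0825). ORS over IFE was called with the IFE and ORS libraries alone (adjusted p = 0.0178), without HFSC L95 (0.0172) or L97 (0.0203) and in limma-voom (0.0144), within a range of 0.00191 to 0.187.

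Gli2, the main activator downstream of Smo, differed less between compartments. Gli2 (chromosome 1, 118834132 to 119053619, - strand) was at 53.7 and 59.4 CPM in HFSC libraries L95 and L97, labelled knockout, against 27.8 and 31.5 CPM in HFSC controls L94 and L136. Gli2 levels in ORS were 44.9 and 112 CPM in knockouts E358 and E359, against 99.6 and 94.9 CPM in controls E341 and E344. Gli2 levels in IFE were 30.4 and 94.5 CPM in knockouts E358 and E359, against 41.1 and 79.5 CPM in controls E341 and E360. E358 was the low library of the knockout pair in both ORS and IFE, and all 3 compartments overlapped.

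The log2 fold change of Gli2 was -1.01 for HFSC over ORS (SE 0.380, -1.84 to -0.18, limma adjusted p = 0.0662), -0.43 for HFSC over IFE (adjusted p = 0.407) and 0.58 for ORS over IFE (adjusted p = 0.326). HFSC over ORS was called without IFE knockout E358 (adjusted p = 0.0244), IFE knockout E359 (0.0256) or ORS knockout E358 (0.0333), within a range of 0.00117 to 0.241.

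Gli3, which is processed mainly into the pathway's repressor, was the most even of the GLI genes. Gli3 (chromosome 13, 15463235 to 15730026, + strand) was at 95.6 and 89.2 CPM in HFSC libraries L95 and L97, labelled knockout, against 57.8 and 70.1 CPM in HFSC controls L94 and L136. In ORS it was at 106 and 123 CPM in knockouts E358 and E359, against 108 and 84.7 CPM in controls E341 and E344. In IFE it was at 126 and 113 CPM in knockouts E358 and E359, against 96.3 and 95.4 CPM in controls E341 and E360. The compartments overlapped, and the HFSC controls were the 2 lowest libraries.

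For Gli3, HFSC over IFE had a log2 fold change of -0.48 (SE 0.170, -0.85 to -0.11, limma adjusted p = 0.0445) and was called. HFSC over ORS was -0.45 (adjusted p = 0.0682) and ORS over IFE -0.03 (adjusted p = 0.935). The call was lost without any one of 9 of the 12 libraries (range of adjusted p over all alternatives 0.0312 to 0.121), and of the 12 it held without ORS knockout E358, IFE knockout E359 or ORS knockout E359. It was also lost with control libraries alone (0.106) and in limma-voom (0.0794). The sign of ORS over IFE turned on the deposited scale (0.94, adjusted p = 0.000965, range over alternatives 0.000965 to 1).

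Read against all genes tested, the Hedgehog genes were called about as often as the background. For HFSC over ORS, 3 of 9 were called in a background of 28.7% of 15251 genes (14.3% higher, 14.4% lower), with Ptch1 and Gli1 lower and Gas1 higher. For HFSC over IFE, 3 of 9 were called in a background of 36.1% (19.9% higher, 16.1% lower), and Ptch1, Gli1 and Gli3 were all lower. For ORS over IFE, 2 of 9 were called in a background of 19.4% (10.6% higher, 8.82% lower), with Hhip higher and Gas1 lower. On the deposited scale 14.1% of the calls for HFSC over ORS were higher, against 49.9% on the TMM scale, and 93.0% of those for ORS over IFE were higher, against 54.6%.

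**Figure D2:**
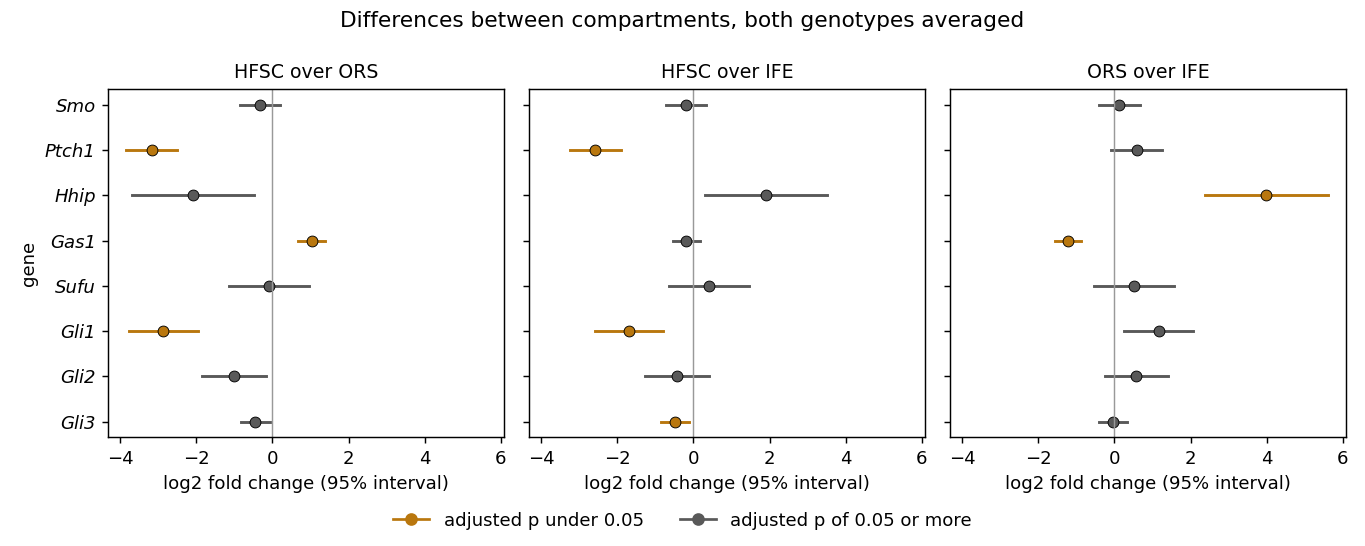
Log2 fold change of each Hedgehog gene except Shh between compartments (x axis), 12-library limma fit, both genotypes averaged over 4 libraries per compartment; lines are 95% intervals and amber marks an adjusted p under 0.05. Ptch1 (-3.17 and -2.58) and Gli1 (-2.86 and -1.70) are lower in HFSC than in ORS and IFE, and Gas1 is lower in ORS; the Hhip values against IFE depend on the added 0.5 CPM because IFE had no Hhip read.

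Between genes, levels were compared per kilobase of annotated exon (GENCODE M21). Gas1 was the highest member in each compartment, at 104 CPM per kb in HFSC, 50.4 in ORS and 116 in IFE. Smo was next in HFSC (11.02 ± 1.8 CPM per kb) and IFE (12.8 ± 3.6), within the spread of Gli3 in IFE (11.2 ± 1.5). In ORS the second place belonged to Gli1 (18.5 ± 2.6 CPM per kb), ahead of Smo (13.8 ± 2.2), Gli2 (12.8 ± 4.3) and Gli3 (11.01 ± 1.7), which did not separate from each other. In HFSC Gli1 (2.87 ± 2.06) and Ptch1 (0.893 ± 0.430) ranked sixth and seventh by mean, below Sufu (3.66 ± 1.62, SD, n = 4 for each value). The ranges of Gli1 (1.30 to 5.90) and Ptch1 (0.437 to 1.47) overlapped that of Sufu (1.36 to 5.15). The deposited Ptch1 span (63511533 to 63565520) is shorter than the GENCODE span (63508328 to 63573598). The level of Ptch1 per kb may therefore be understated. Hhip and Shh were the lowest members throughout.

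Markers of cells other than keratinocytes also differed between compartments. The 11 dermal papilla markers summed to 0.527 to 8.80 CPM in HFSC, 30.6 to 88.5 CPM in ORS and 10.7 to 21.6 CPM in IFE. Vcan, a matrix proteoglycan, made up most of it in ORS (30.6 to 85.0 CPM) and IFE (10.3 to 19.2 CPM), and was at 0 to 5.30 CPM in HFSC. The dermal papilla genes Sox2, Hey2 and Fgf10 had 0 reads in all 12 libraries. The 10 fibroblast markers summed to 31.7 to 90.6 CPM in HFSC, 88.9 to 149.9 CPM in ORS and 177 to 313 CPM in IFE. Dcn was the largest fibroblast marker in IFE (127 to 279 CPM), and Col3a1 reached at most 0.197 CPM. The fibroblast markers did not all follow the sum. Of 8 tested for ORS over IFE, 2 were called higher and 0 lower, in a background of 19.4%. Their median log2 fold change was 0.85, beside 0.12 over all genes. Col1a1 and Vim were higher in every ORS library than in any IFE library, and Dcn was lower. The 6 immune markers in the files summed to 29.9 to 59.9 CPM in HFSC, 11.4 to 14.8 CPM in ORS and 11.6 to 24.4 CPM in IFE. Cd74, which serves antigen presentation, was higher in each HFSC library (18.6 to 45.1 CPM) than in any other (at most 8.03 CPM), while the leukocyte marker Ptprc was at 0 throughout. The 8 melanocyte markers summed to 201 to 308 CPM in HFSC, 71.4 to 76.5 CPM in ORS and 14.5 to 29.4 CPM in IFE. Mitf, the melanocyte transcription factor, was the largest of them in HFSC (181 to 279 CPM), where the melanocyte gene Sox10 reached at most 0.724 CPM. The part of such cells in the Hedgehog levels was not tested, and in bulk RNA fewer cells of a type cannot be told apart from less transcript per cell.

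By the pattern over the 12 libraries, the genes most like Gli1 among 15250 compared were Dut (Pearson r = 0.971), Slbp (0.968) and Dnmt1 (0.968). Those most like Ptch1 were Hmga2 (0.969), Arpp19 (0.968) and Col4a1 (0.967). Hhip was nearest to Kifap3 (0.910), Tmem26 (0.899) and 2600006K01Rik (0.895), and Gas1 to Pak6 (0.976), Fam46a (0.943) and Abhd14b (0.936). These correlations describe the 12 libraries, which share 3 compartments, and carry no test.

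Sex moved with genotype in HFSC and IFE. Xist, read in female cells, was at 5.89 and 1.19 CPM in HFSC libraries labelled knockout, against 671 and 504 CPM in controls. In IFE it was at 1896 and 1314 CPM in knockouts, against 2.85 and 0.982 CPM in controls. In ORS it was at 1631 and 1443 CPM in knockouts, against 1.03 CPM in control E341 and 1595 CPM in control E344. The effects of sex and genotype therefore cannot be told apart in HFSC and IFE.

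No Hedgehog gene was called between knockout and control in any compartment. In HFSC, 0 of 8 genes tested were called between libraries labelled knockout and controls, in a background of 0.0363% (5 of 13778 genes, of which 3 higher and 1 lower were sex-linked markers). Limma-voom called 0 genes there, and 1052 genes, 2 of them members, had an unadjusted p under 0.05. Those were Gli2 and Gli3. The Gli2 log2 fold change was 0.92 (SE 0.267, 0.30 to 1.54, unadjusted p = 0.00973, adjusted p = 0.508), with both libraries labelled knockout above both controls. The Gli3 log2 fold change was 0.53 (SE 0.219, 0.02 to 1.04, unadjusted p = 0.0429, adjusted p = 0.630), again without overlap.

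In all, 5 of the 8 genes did not overlap between HFSC libraries labelled knockout and controls, beside 38% of all genes tested. Ptch1 and Gas1 were also higher in both libraries labelled knockout than in both controls. The differences were 0.93 for Ptch1 (95% interval -0.26 to 2.12, adjusted p = 0.704) and 0.41 for Gas1 (-0.09 to 0.92, adjusted p = 0.692). Hhip was lower in both, at -2.08 (-4.34 to 0.18, adjusted p = 0.673), on at most 89 reads per library. Gli1, Smo and Sufu overlapped, with L97 holding the highest Gli1 and the lowest Sufu and Smo of the 4 libraries.

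In ORS, 0 of 8 genes tested were called, as were 0% of 14449 genes, with 0 calls in limma-voom and 491 genes, no member among them, at an unadjusted p under 0.05. Non-overlap was seen for 2 of the 8 genes, beside 31.4% of all genes tested. Smo was higher in both knockouts than in both controls, at 0.33 (95% interval -0.48 to 1.14, adjusted p = 1), and Gas1 lower in both, at -0.27 (-0.79 to 0.24, adjusted p = 1). The other genes overlapped. The interval for Gli1 was -0.67 to 1.07 and that for Ptch1 -0.98 to 0.68, so changes within these limits are not excluded.

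In IFE, 0 of 8 genes tested were called, as were 0% of 14449 genes, with 0 calls in limma-voom and 1088 genes, again with no member, at an unadjusted p under 0.05. Here 2 of the 8 genes did not overlap, beside 30.7% of all genes tested. Gli1 and Gli3 were higher in both knockouts than in both controls. The difference was 0.72 for Gli1 (SE 0.391, -0.15 to 1.58, adjusted p = 0.748) and 0.32 for Gli3 (-0.28 to 0.91, adjusted p = 0.856). The other genes overlapped. Hhip, counted among the 8, had 0 reads in all 4 IFE libraries and passed the filter only through its ORS reads, so it could not be called here.

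No difference between the knockout effects of 2 compartments passed the test. For ORS minus IFE, HFSC minus IFE and HFSC minus ORS, 0 of 9 genes were called, as were 0% of 15251 genes in each. Limma-voom called 0, 0 and 2 genes, and 1036, 1110 and 682 genes, no member among them, had an unadjusted p under 0.05. The adjusted p of the 9 genes lay between 0.797 and 1 over these differences.

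**Figure D3:**
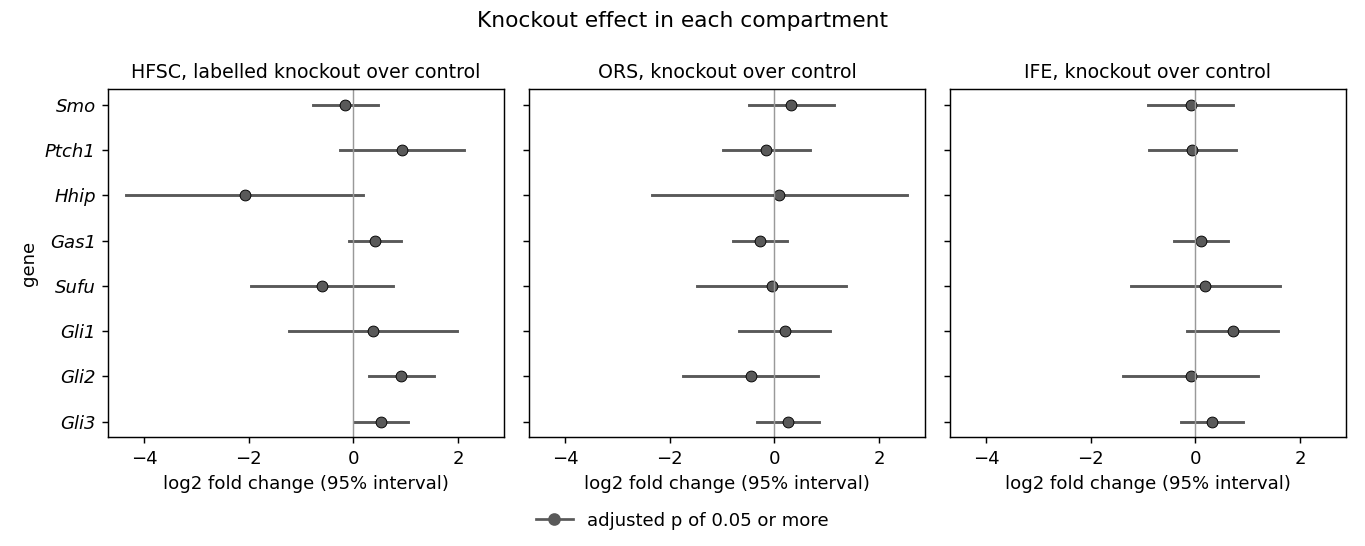
Log2 fold change of knockout over control (x axis) for each Hedgehog gene tested, by compartment, from limma with 2 libraries per group; lines are 95% intervals and no gene has an adjusted p under 0.05. Gli2 (0.92) and Gli3 (0.53) in HFSC are the members whose intervals exclude 0; Hhip is left out for IFE, where it had no reads, and Shh was not tested.

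The wider pathway was read from 5 gene lists with the 9 members removed. They held 8 ligand and release genes, of which 5 were tested between compartments, 9 receptors (6 tested), 27 signal transduction genes (26 tested), 22 cilium genes (all tested) and 23 GLI targets (17 tested). In limma, 0 of 72 list genes tested were called between HFSC libraries labelled knockout and controls, and 0 of 74 in ORS and in IFE, with 6, 3 and 6 genes at an unadjusted p under 0.05 and 0 calls in limma-voom. Between compartments, the GLI target list held the most calls. Of its 17 genes tested, 2 were higher and 10 lower in HFSC than in ORS, in a background of 28.7% (14.3% higher, 14.4% lower). The list's median log2 fold change was -1.28, beside 0.03 over all genes (-1.33 with a gene without HFSC reads at its bound). For HFSC over IFE 4 were higher and 7 lower in a background of 36.1% (median -0.87 beside 0.18). For ORS over IFE 9 were higher and 3 lower in a background of 19.4% (median 1.01 beside 0.12). Both medians were unchanged with genes without reads at their bounds.

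Among GLI targets, Mycn, a growth-promoting transcription factor, was at 4.54 to 12.7 CPM in HFSC, 104 to 153 CPM in ORS and 9.82 to 31.0 CPM in IFE. Mycn fell by 3.82 for HFSC over ORS (SE 0.412, adjusted p = 3.59e-05) and was 2.95 for ORS over IFE (adjusted p = 0.000372), while HFSC over IFE was not called (-0.87, adjusted p = 0.122). Foxm1, a regulator of mitotic genes, fell by 4.98 for HFSC over ORS (SE 0.762, adjusted p = 0.000429) and by 4.96 for HFSC over IFE (adjusted p = 0.000321).

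Other targets had patterns of their own. Prdm1, a transcriptional repressor, had 0 reads in IFE and was at 4.34 to 12.04 CPM in HFSC and 49.97 to 100.4 CPM in ORS. The means were at least 28.4-fold and at least 325-fold higher than in IFE (3 reads per library). Without HFSC control L136 the HFSC bound was 21.7-fold, and without ORS knockout E358 the ORS bound was 299.6-fold. Igf2, a growth factor, had 0 reads in HFSC, at most 2.11 CPM in ORS and 217 to 538 CPM in IFE, at least 1804-fold lower in HFSC than in IFE. Foxc1, a transcription factor of quiescent bulge cells, was higher than in IFE in both HFSC (3.94, SE 0.342, adjusted p = 5.08e-06) and ORS (3.68, SE 0.342, adjusted p = 1.73e-05). Bmp2, a secreted differentiation signal, was lower in ORS than in IFE (-4.33, SE 0.533, adjusted p = 0.000148).

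Ligand reception genes split by gene rather than by compartment. Of the 6 receptors and co-receptors tested, 2 were higher and 2 lower for HFSC over ORS, 3 higher and 2 lower for HFSC over IFE, and 3 higher and 1 lower for ORS over IFE. The backgrounds of these comparisons were 28.7%, 36.1% and 19.4% of all genes tested. Gpc3, a glypican that competes with Ptch1 for ligand in mice, was at 2.13 to 8.80 CPM in HFSC, 146 to 222 CPM in ORS and 229 to 369 CPM in IFE, and its log2 fold change was -4.95 for HFSC over ORS (SE 0.295, adjusted p = 6.97e-07). Gpc6, another glypican, was at 129 to 208 CPM in HFSC, 6.79 to 34.5 CPM in ORS and at most 0.252 CPM in IFE. The co-receptor Boc was higher in ORS than in IFE (1.87, SE 0.279, adjusted p = 0.0006) and the co-receptor Cdon lower (-2.22, SE 0.415, adjusted p = 0.0029).

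Of the 5 ligand and ligand release genes tested, 1 was higher and 1 lower in each comparison between compartments. The background was 28.7% for HFSC over ORS, 36.1% for HFSC over IFE and 19.4% for ORS over IFE. Scube2, a secreted protein that helps release the lipid-bearing ligand, was at 71.6 to 151 CPM in HFSC, 0 to 5.09 CPM in ORS and 0.317 to 7.14 CPM in IFE. Its log2 fold change was 5.83 for HFSC over ORS (SE 0.695, limma adjusted p = 7.15e-05) and 4.88 for HFSC over IFE (SE 0.695, adjusted p = 0.000186). The list's median was -0.46, 1.07 and -0.41 for HFSC over ORS, HFSC over IFE and ORS over IFE (1.41 for HFSC over IFE with a gene at its bound).

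Genes of the intracellular lists were called in both directions, and most cilium genes called against IFE were higher. Of 26 signal transduction genes tested, 1 was higher and 3 lower for HFSC over ORS, 4 higher and 2 lower for HFSC over IFE, and 2 higher and none lower for ORS over IFE, shares below the background of each comparison. Hdac1, a deacetylase that acts on GLI proteins, was lower in HFSC than in ORS (-1.14, SE 0.210, adjusted p = 0.00158), and Spop, an adaptor for GLI degradation, was higher in HFSC than in IFE (0.83, SE 0.189, adjusted p = 0.00464). Of 22 cilium genes tested, 2 were higher and none lower for HFSC over ORS, 9 higher and 1 lower for HFSC over IFE, and 6 higher and 1 lower for ORS over IFE. These are 2 of 22 for HFSC over ORS beside a background of 28.7%, 10 of 22 for HFSC over IFE beside 36.1%, and 7 of 22 for ORS over IFE beside 19.4%. Cc2d2a, of the ciliary transition zone, was the one lower gene against IFE, at -1.60 in HFSC (SE 0.373, adjusted p = 0.00547) and -3.45 in ORS (SE 0.373, adjusted p = 5.60e-05). The list's median was 1.09 for HFSC over IFE and 0.84 for ORS over IFE, beside 0.18 and 0.12 over all genes.

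**Figure D4:**
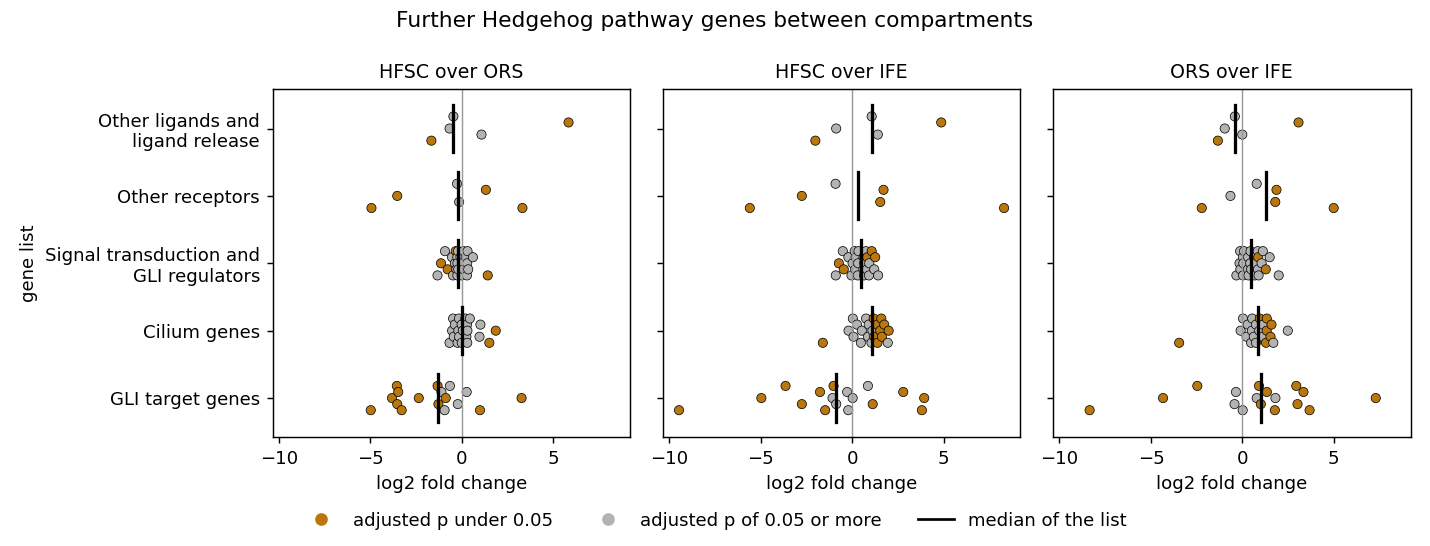
Log2 fold changes (x axis) of further Hedgehog pathway genes, by list (y axis, points offset for visibility), for HFSC over ORS, HFSC over IFE and ORS over IFE; each point is a gene tested, amber marks an adjusted p under 0.05 and the black line is the list's median. GLI targets lie mostly below 0 for HFSC over ORS (median -1.28) and mostly above 0 for ORS over IFE (median 1.01), with Igf2 far to the left against IFE; values of genes without reads in a compartment depend on the added 0.5 CPM.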

How the data were processed

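RNA was sequenced in 12 mouse skin libraries, 6 groups of 2. The authors deposited log2 values per gene and library, which the values show to be log2 reads per M of a library total of 39.9 to 60.9 M. Trim Galore, DESeq2 and mm10 are named in the submitters' processing notes, and the labels' protocols name a PicoPure kit for RNA and a SMARTer Ultra kit for cDNA. Which aligner, counter and strand setting were used is not given in the sources used here. A gene without reads held the value of 0.9 read, and at least 99.99% of values were whole reads within 0.2 reads, so reads were recovered.

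Reads were scaled by TMM (trims of 30% and 5%) over all 12 libraries and tested with limma 3.58.1 (R 4.3.3, trended and robust) on log2(CPM + 0.5). Genes needed 10 reads, at the median library size, in 2 libraries and 15 in total. ORS and IFE knockout effects came from a fit of 8 libraries (4 residual degrees of freedom), HFSC from its 4 (2), and compartments and differences of effects from all 12 (6). The methods were run on simulated counts with planted changes, a fixed dispersion and otherwise common means over the groups. The simulation was not fitted to the spread of these replicates, so it gives no error rate for them. A gene was called at a two-sided Benjamini-Hochberg adjusted p under 0.05. Up to 4 genes per list and comparison, the largest calls, could be named. The 9 members and all lists were chosen with earlier results of these data known. In each replicate pair the reads differed by more than sampling noise, with chi-square 41.5 to 140.2 times its degrees of freedom. The labels do not say that replicates are separate animals, and p-values cover only variation among these samples, possibly technical. Alternatives were other scalings, filters, pseudocounts, fits, limma-voom and leaving out each library.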

Additional observations from a re-analysis of the deposited data

Results flagged for a closer look

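The knockout effect of Gas1 had opposite signs in HFSC and ORS, and it was not called in either. Both HFSC libraries labelled knockout (387 and 314 CPM) lay above both HFSC controls (311 and 220.4 CPM), a log2 fold change of 0.41 (adjusted p = 0.692). Both ORS knockouts (159 and 113 CPM) lay below both ORS controls (162 and 163 CPM), a log2 fold change of -0.27 (adjusted p = 1, from -0.52 to -0.025 without each library in turn). The difference of these knockout effects, HFSC minus ORS, was 0.69 (SE 0.322, unadjusted p = 0.0538, adjusted p = 1 in the 12-library limma fit), so it did not pass the threshold. The difference lay between 0.43 and 0.94 without each library in turn. Gas1 was flagged because its knockouts lay on opposite sides of the controls in HFSC and ORS, so the sign was set by that choice. Non-overlap was seen for 38% of all genes tested in HFSC and 31.4% in ORS, and the share on opposite sides was not counted. Sex moved with genotype in HFSC, so their effects on Gas1 cannot be told apart there.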

How the results depend on the processing

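Of 1017 values of the Hedgehog genes under other settings, 940 kept their direction and side of the threshold, 17 lost a call, 25 gained one and 35 changed sign. No member was called between knockout and control, or in a difference of knockout effects, under any setting run. Ptch1 (HFSC over ORS and over IFE), Gli1 (HFSC over ORS) and Hhip (ORS over IFE) were called under every setting run. Of 49 calls of named list genes, 30 held throughout, 19 were lost in at least 1 setting and none changed sign. Shh rested on at most 50 reads per library. Hhip had at most 469, and its ORS replicates held 87 and 469 reads in knockouts, against 85 and 424 in controls. For all changes listed here the cause was not tested.

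On the deposited scale, the genes called numbered 8003 for ORS over IFE (7 members), 7435 for HFSC over ORS (6 members), 1 and 2 for the IFE and HFSC knockouts, and 1 each for the differences ORS minus IFE and HFSC minus IFE. Gli3 for ORS over IFE became 0.94 and Shh for HFSC over ORS -0.20. Without TMM, 5 members were called for HFSC over ORS, and Gli3 for ORS over IFE was 0.069. With control libraries alone, 1386 genes were called for ORS over IFE, 3331 for HFSC over IFE (1 member) and 2417 for HFSC over ORS; Smo for ORS over IFE was -0.071, and for HFSC over ORS Shh was -1.09 and Sufu 0.17.

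For the IFE knockout, 3 genes were called with the filter at 50 reads, 24 in the fit of all 12 libraries and 5 with IFE alone. For the HFSC knockout, 1 gene was called with no filter, 0 in limma-voom and 1 in the fit of all 12. A pseudocount of 0.1 CPM gave 1 call for HFSC minus IFE, and limma-voom 2 for HFSC minus ORS.

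Titles share the numbers E341, E358 and E359 between ORS and IFE, and the main fit did not pair libraries by them. The deviations of same-numbered libraries correlated at 0.0486 (E341) and 0.0555 (E358 and E359). With 2 libraries per group the deviations in a group mirror each other, so these values cannot decide whether the numbers pair libraries. With the title number as a replicate block over the 6 libraries sharing one, 1527 genes were called for ORS over IFE, Gli3 was 0.0145 and Gli1 passed (adjusted p = 0.0435, range over all settings 0.00191 to 0.187). The block changed no other member's call, and the difference ORS minus IFE kept 0 calls.

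Without each library in turn, genes called ranged from 1909 to 3509 for ORS over IFE, 1 to 45 for the HFSC knockout, 0 to 53 for IFE and 0 to 2 for ORS. For the differences they ranged from 0 to 92 for HFSC minus IFE, 0 to 6 for HFSC minus ORS and 0 to 60 for ORS minus IFE. Members called for HFSC over ORS ranged from 3 to 5. Knockout log2 fold changes that changed sign ranged, in HFSC, from -0.68 to 1.42 for Gli1, -0.40 to 0.090 for Smo and -1.53 to 0.34 for Sufu. In ORS they ranged from -1.11 to 0.20 for Gli2, -1.04 to 1.24 for Hhip, -0.52 to 0.22 for Ptch1 and -0.63 to 0.53 for Sufu. In IFE they ranged from -0.90 to 0.72 for Gli2, -0.49 to 0.38 for Ptch1, -0.50 to 0.33 for Smo and -0.41 to 0.80 for Sufu. Between compartments, sign changes were seen for Gli3 in ORS over IFE (-0.12 to 0.056), Smo in ORS over IFE (-0.074 to 0.34) and HFSC over IFE (-0.39 to 0.020), Sufu in HFSC over IFE (-0.051 to 0.88) and HFSC over ORS (-0.57 to 0.37), and Shh in HFSC over ORS (-0.46 to 0.71).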
